A study of Mus musculus with 17 samples.

Results

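Eosinophils store a small set of highly basic proteins in their granules. The genes described here encode 6 of them, chosen by symbol from the array annotation out of 22180 measured genes. Epx encodes eosinophil peroxidase, Prg2 encodes major basic protein, and Prg3 encodes its homologue. Ear6, Ear10 and Rnase2a (older symbol Ear11) encode eosinophil-associated ribonucleases. Each of the 6 had 1 probe set.

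Granule proteins are made while eosinophils mature in the marrow, and mature cells carry them preformed into the tissues. Eosinophil peroxidase is a haem enzyme that makes oxidants from hydrogen peroxide and halides. Major basic protein forms the crystalline core of the granule and damages membranes, and the eosinophil-associated ribonucleases are secreted members of the ribonuclease A family. That family has expanded in rodents into many near-identical copies.

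The cells were gated on CD45, Siglec-F and CCR3 together and came from CC10-IL13 transgenic mice aged 6 to 8 weeks, of both sexes. In these mice food with doxycycline (Dox) turns on an interleukin-13 (IL-13) transgene, which is named for the CC10 promoter of airway epithelium. All groups, controls included, carried the transgene. Knockout mice were CC10-IL13Tg/Pirb-/-, without the inhibitory receptor PIR-B, and wildtype mice were CC10-IL13Tg/Pirb+/+ littermates. The 17 arrays form 6 groups. Marrow without Dox had 2 wildtype and 3 knockout arrays. Marrow after 2 weeks of Dox had 3 and 3, and esophagus after 2 weeks of Dox had 3 and 3. No esophageal group without Dox was analysed here. The labels do not say whether replicates were separate mice or pools, so p-values measure the spread between these samples, which may be technical.

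Values are log2 distances from the middle array of a probe set. A value of 0 is the level of that middle array and not an absence of signal, so levels of different genes cannot be set against each other. Nor can the sorted cells be checked for the presence of a marker, only for its change between groups. These are bulk samples, in which fewer cells of a type and less RNA per cell cannot be told apart. The array of replicate 3 of knockout marrow in mice without Dox was unlike the rest. Over all genes its centred values spread with an SD of 0.802. Other marrow arrays had 0.231 to 0.284, and esophageal arrays had 0.511 to 0.611, so the tissue comparisons set arrays of unlike spread against each other. The mean correlation of that outlying array across genes with its own group was -0.0268. With the wildtype esophageal arrays it was 0.38, against -0.447 to -0.0958 for the other marrow arrays. Epx, Prg3 and Ear6 were at -1.57, -2.26 and -2.03 on it, below all other marrow arrays. Prg2, Ear10 and Rnase2a lay within the range of the other marrow arrays. The outlying array enters the comparisons of knockout marrow without Dox directly and all others through the shared estimate of spread. Where leaving it out changed a difference, a list median or a count of listed genes that passed by over 1.5 times, both are given. SEs, confidence intervals, p-values and other counts use all arrays unless stated. For these the value without that array is given for some results only, even where it moved by more.

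Promoter sequences were matched by symbol for 5 of the 6 genes, in the RefSeq tables for GRCm38.p6. Each runs from 250 bases before the annotated start to 50 bases after it. The ribonuclease promoters are shown because these genes differ sharply in the arrays while their upstream sequences are close copies. The capitals mark the longest run that Rnase2a, Ear6 and Ear10 share, of 28 bases.
Rnase2a, chr14:51256063-51256362, minus strand: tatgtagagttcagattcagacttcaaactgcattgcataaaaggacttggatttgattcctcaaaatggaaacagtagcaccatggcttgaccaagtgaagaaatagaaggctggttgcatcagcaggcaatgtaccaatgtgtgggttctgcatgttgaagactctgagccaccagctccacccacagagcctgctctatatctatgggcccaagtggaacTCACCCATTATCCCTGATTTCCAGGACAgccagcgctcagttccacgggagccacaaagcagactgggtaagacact
Ear6, chr14:51853518-51853817, plus strand: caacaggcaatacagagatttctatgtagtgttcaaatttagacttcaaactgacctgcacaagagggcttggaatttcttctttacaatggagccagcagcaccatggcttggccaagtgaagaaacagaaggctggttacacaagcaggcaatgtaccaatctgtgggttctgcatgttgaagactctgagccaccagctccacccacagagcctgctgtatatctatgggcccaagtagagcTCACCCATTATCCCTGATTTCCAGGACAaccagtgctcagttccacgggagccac
Ear10, chr14:43923547-43923846, minus strand: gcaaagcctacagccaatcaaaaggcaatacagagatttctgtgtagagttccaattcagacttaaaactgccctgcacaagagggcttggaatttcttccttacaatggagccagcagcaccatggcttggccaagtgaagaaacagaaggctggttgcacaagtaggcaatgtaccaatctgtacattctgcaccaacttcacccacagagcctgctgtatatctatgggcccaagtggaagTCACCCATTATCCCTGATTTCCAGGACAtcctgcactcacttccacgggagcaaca
Over the aligned bases, Rnase2a was 89.6% identical to Ear6 (278 bases) and 86.5% identical to Ear10 (260 bases), and Ear6 was 91.5% identical to Ear10 (281 bases). Among all 32851 promoters of this length, 5 hold the 28-base run. The other 2 are those of Ear14 and Rnase2b, further members of the family. Near-identical copies can also share array probes. Whether the probe set of 1 ribonuclease also reads another was not tested.

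Prg3 and Epx are shown as the granule genes outside the ribonuclease family with a promoter in the tables. The capitals mark GATAA or its reverse TTATC in Prg3, and TATAAA in Epx.
Prg3, chr2:84987965-84988264, plus strand: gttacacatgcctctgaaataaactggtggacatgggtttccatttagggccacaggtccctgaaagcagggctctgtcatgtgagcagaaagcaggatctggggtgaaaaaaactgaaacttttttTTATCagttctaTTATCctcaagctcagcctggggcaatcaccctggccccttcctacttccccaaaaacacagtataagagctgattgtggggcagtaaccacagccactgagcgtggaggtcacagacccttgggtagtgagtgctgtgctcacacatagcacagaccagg
Epx, chr11:87875487-87875786, minus strand: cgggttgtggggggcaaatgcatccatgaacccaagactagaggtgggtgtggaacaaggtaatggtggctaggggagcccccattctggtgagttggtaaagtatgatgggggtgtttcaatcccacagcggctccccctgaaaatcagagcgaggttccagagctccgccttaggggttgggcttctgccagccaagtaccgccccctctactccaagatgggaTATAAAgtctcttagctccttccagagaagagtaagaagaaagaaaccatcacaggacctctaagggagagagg
Both strands were searched for 5 motifs. GATAA, the core bound by GATA factors, occurs in 25.4% of all promoters. It was found 2 times in Prg3, 1 time each in Rnase2a, Ear6 and Ear10, and 0 times in the Epx window. In the ribonucleases it lies within the shared run. A STAT6-type motif, TTC and GAA with 4 free bases between them, found in 6.95% of promoters, occurred 1 time in Epx and in none of the other windows shown. TTGCNNAA, a C/EBP-type motif in 10.8% of promoters, occurred in Rnase2a and Ear10 and not in Ear6, Prg3 or Epx. The ETS-type AGGAAG (35.4% of promoters) occurred in Ear10 and Prg3, and TATAAA (13.6%) in Epx. A match is a description of letters and not of a bound site.

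**Figure D1:**
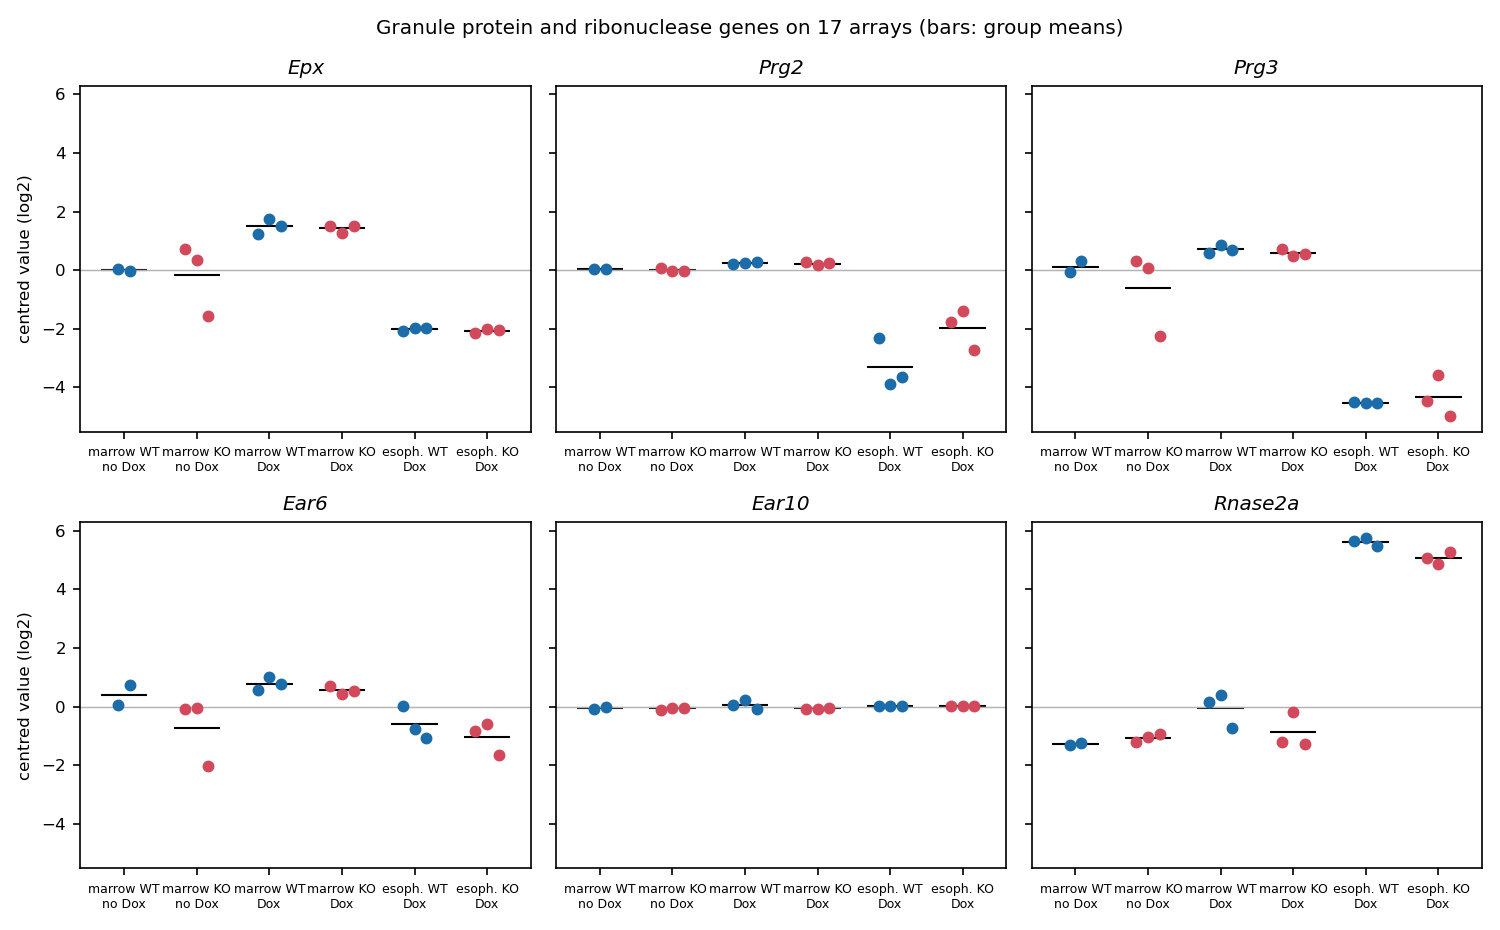
Centred log2 value of each gene on each of the 17 arrays, by group, with wildtype (WT) in blue, knockout (KO) in red and a black bar at the group mean. Epx, Prg2 and Prg3 lie lowest in the 6 esophageal arrays, Rnase2a lies between 4.86 and 5.75 there and at 0.39 or below in all marrow arrays, and Ear10 stays between -0.11 and 0.24.

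The largest differences were between tissues. In mice given Dox, the peroxidase and both major basic protein genes were lower in esophageal than in marrow eosinophils, and Rnase2a was far higher. In wildtype, 4 of the 6 genes passed the test (limma, adjusted p under 0.05), with 1 higher and 3 lower, when 15.2% of all genes passed (8.11% higher and 7.06% lower). In knockout, 5 of 6 passed, 1 higher and 4 lower, when 10.5% of all genes passed (4.5% higher and 6.04% lower). The median difference over the 6 genes was -2.44 in wildtype and -1.89 in knockout, beside 0.14 and 0.06 over all genes.

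Epx was at 1.23, 1.74 and 1.52 in wildtype marrow with Dox and at -2.06, -1.99 and -1.97 in wildtype esophagus. In knockout it was at 1.5, 1.27 and 1.52 in marrow and at -2.16, -2 and -2.04 in esophagus. All 6 esophageal arrays lay below all 6 marrow arrays with Dox. The difference was -3.50 ± 0.41 (SE, n = 3 and 3) in each genotype, an 11.3-fold lower value (limma adjusted p = 0.000187 in wildtype and 0.000135 in knockout). It ranked 39th from the lowest of 22180 genes in wildtype and 38th in knockout.

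Prg2 was at 0.20, 0.24 and 0.29 in wildtype marrow with Dox and at -2.32, -3.89 and -3.66 in wildtype esophagus. In knockout it was at 0.27, 0.17 and 0.24 in marrow and at -1.78, -1.40 and -2.72 in esophagus. The tissues did not overlap, and the esophageal arrays spread far more widely than the marrow arrays. Prg2 fell by 3.53 ± 0.35 in wildtype (11.6-fold, limma adjusted p = 5.27e-05). It fell by 2.20 ± 0.35 in knockout (4.58-fold, limma adjusted p = 0.00136).

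Prg3 lies next to Prg2 on chromosome 2, with 0 protein-coding genes between them in the reference annotation. Its values were 0.59, 0.85 and 0.69 in wildtype marrow with Dox and -4.49, -4.53 and -4.53 in wildtype esophagus. Knockout arrays had 0.72, 0.47 and 0.54 in marrow and -4.45, -3.57 and -4.98 in esophagus. Again no esophageal array reached any marrow array with Dox. Prg3 fell by 5.22 ± 0.52 in wildtype (37.4-fold, limma adjusted p = 5.03e-05). It fell by 4.91 ± 0.52 in knockout (30.2-fold, limma adjusted p = 5.79e-05). These were the 6th and 7th lowest differences of all genes in the comparisons of wildtype and knockout.

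Rnase2a was at 0.17, 0.39 and -0.73 in wildtype marrow with Dox and at 5.67, 5.75 and 5.49 in wildtype esophagus. Knockout arrays had -1.20, -0.17 and -1.26 in marrow and 5.09, 4.86 and 5.27 in esophagus. The gap between the tissues was wider than the whole range within either tissue. Rnase2a rose by 5.69 ± 0.29 in wildtype (51.8-fold, limma adjusted p = 8.69e-08) and by 5.95 ± 0.29 in knockout (62.0-fold, limma adjusted p = 5.15e-08). In each genotype 2 of the 22180 genes had a larger increase.

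Ear6 moved with the granule proteins rather than with Rnase2a, by a smaller amount. It was at 0.56, 1.00 and 0.78 in wildtype marrow with Dox and at 0.03, -0.77 and -1.07 in wildtype esophagus. Knockout arrays had 0.69, 0.44 and 0.55 in marrow and -0.82, -0.59 and -1.65 in esophagus. The tissues did not overlap in either genotype. The difference was -1.58 ± 0.47 in knockout, which passed (limma adjusted p = 0.0487), and -1.39 ± 0.47 in wildtype, which did not (limma adjusted p = 0.0609). The knockout difference passed in 7 of 14 alternatives, with a lowest limma adjusted p of 0.000647, and kept its sign in all 14. Its call was lost with median centring (limma adjusted p = 0.0633) and when any 1 of the 6 arrays compared was left out (0.0602 to 0.189). The wildtype difference passed in 6 of 14 alternatives, among them without the outlying marrow array (limma adjusted p = 0.00546) and without wildtype esophageal replicate 1 (0.0376).

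Ear10 was between -0.11 and 0.24 on all 17 arrays. Its difference between tissues was -0.05 (95% confidence interval -0.21 to 0.11) in wildtype and 0.08 (-0.08 to 0.24) in knockout, and neither passed (limma adjusted p = 0.607 and 0.58). How brightly the Ear10 probe set reads at all is not known from centred values.

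Counted by array, the wildtype tissues did not overlap for 5 of the 6 genes, all but Ear10, when 46.1% of all genes showed this (33% higher and 13.1% lower). The knockout tissues did not overlap for any of the 6, Ear10 included, against 44% of all genes (28% higher and 16% lower). The tissue differences of Epx, Prg2, Prg3 and Rnase2a kept their direction and their call in both genotypes in all 14 alternative settings run for them. Quantile normalization, which forces the arrays to 1 distribution, gave the smallest differences in wildtype. It moved Epx from -3.50 to -3.05, Prg2 from -3.53 to -2.12, Prg3 from -5.22 to -3.37 and Rnase2a from 5.69 to 4.57. In knockout it moved Prg3 from -4.91 to -3.16.

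**Figure D2:**
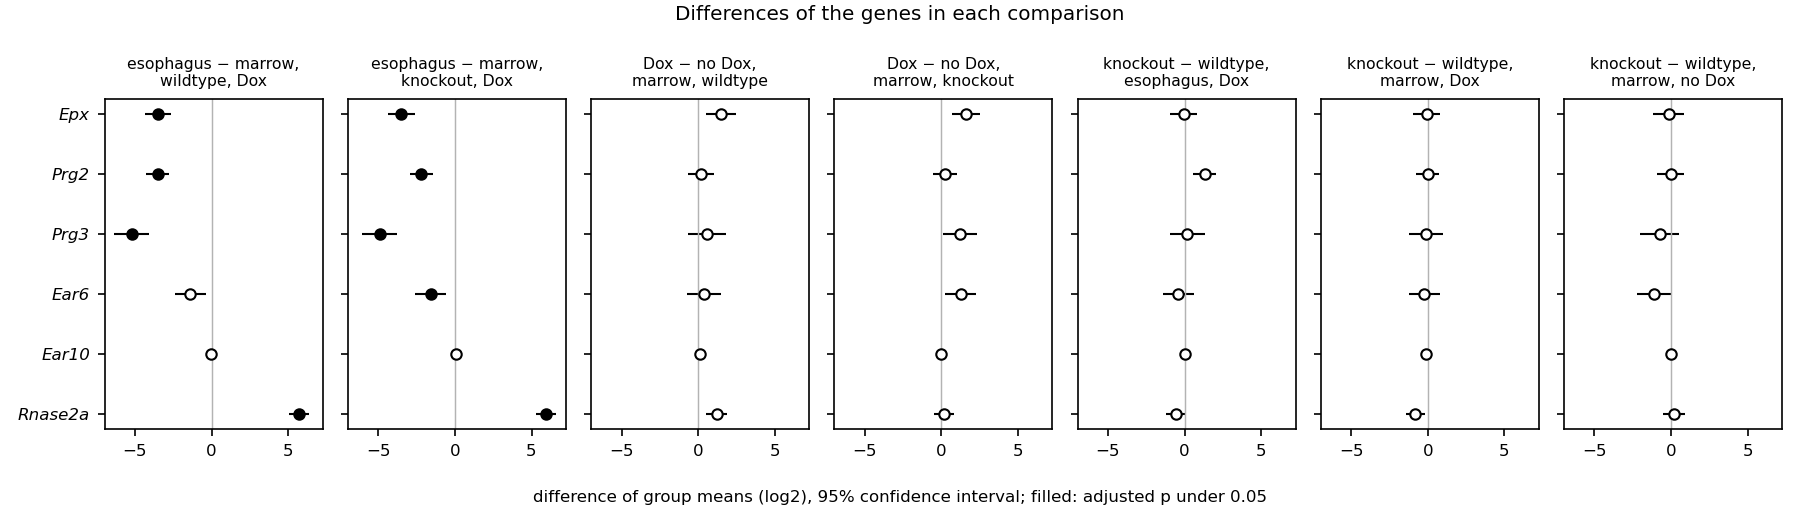
Difference of group means (log2) with its 95% confidence interval for each gene, in 7 comparisons, with filled points where the limma adjusted p was under 0.05. Filled points occur in the tissue comparisons alone, where Prg3 reaches -5.22 and Rnase2a 5.95.

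The other measured genes of the ribonuclease A family differed by 0.96 or less upward between the tissues. Of 22 listed genes beside Ear6, Ear10 and Rnase2a, 12 had a probe set of their own. In wildtype 0 of them passed as higher and 1 as lower in the esophagus, with a median difference of 0.18. In knockout 0 passed in either direction, with a median of 0.09, by limma. These counts depended on the setting. Without the outlying array they were 2 higher and 1 lower in wildtype and 0 and 1 in knockout, and with quantile normalization none passed in either genotype. At an unadjusted p under 0.05, 5 of the 12 differed in wildtype and 2 in knockout. Rnase2b, whose promoter was 92.5% identical to that of Rnase2a over 281 aligned bases, differed by 0.40 ± 0.24 in wildtype and 0.26 ± 0.24 in knockout (limma adjusted p = 0.23 and 0.58). Within each genotype its esophageal arrays all lay above its marrow arrays with Dox, as for 33% of genes in wildtype and 28% in knockout. The outlying array, which enters the SE, was at 1.10 for Rnase2b, against -0.39 to 0.36 on the other arrays. Ear14 and Rnase6 were singled out after their values were seen. Ear14 differed by 0.22 ± 0.12 and 0.00 ± 0.12 (limma adjusted p = 0.207 and 1). Rnase6, a ribonuclease of phagocytes with antimicrobial activity, differed by 0.89 ± 0.34 and 0.96 ± 0.34 (limma adjusted p = 0.0821 and 0.0916). Ear1 and Ear2 had no probe set of their own in the annotation used.

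The gene that passed was Rnase12, which fell by 3.75 ± 1.10 in the wildtype esophagus (limma adjusted p = 0.0378), a call that was lost with quantile normalization. Its values were -3.27, -2.82 and -3.03 there, against -1.64, 1.90 and 1.85 in wildtype marrow with Dox. In knockout it was at -0.47, -0.35 and -0.93 in esophagus and 2.33, 1.73 and 1.95 in marrow, a difference of -2.59 ± 1.10 (limma adjusted p = 0.174). All knockout esophageal arrays were above all wildtype ones for Rnase12, as for 5.67% of genes, and the difference did not pass (2.46 ± 1.10, limma adjusted p = 0.329).

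**Figure D3:**
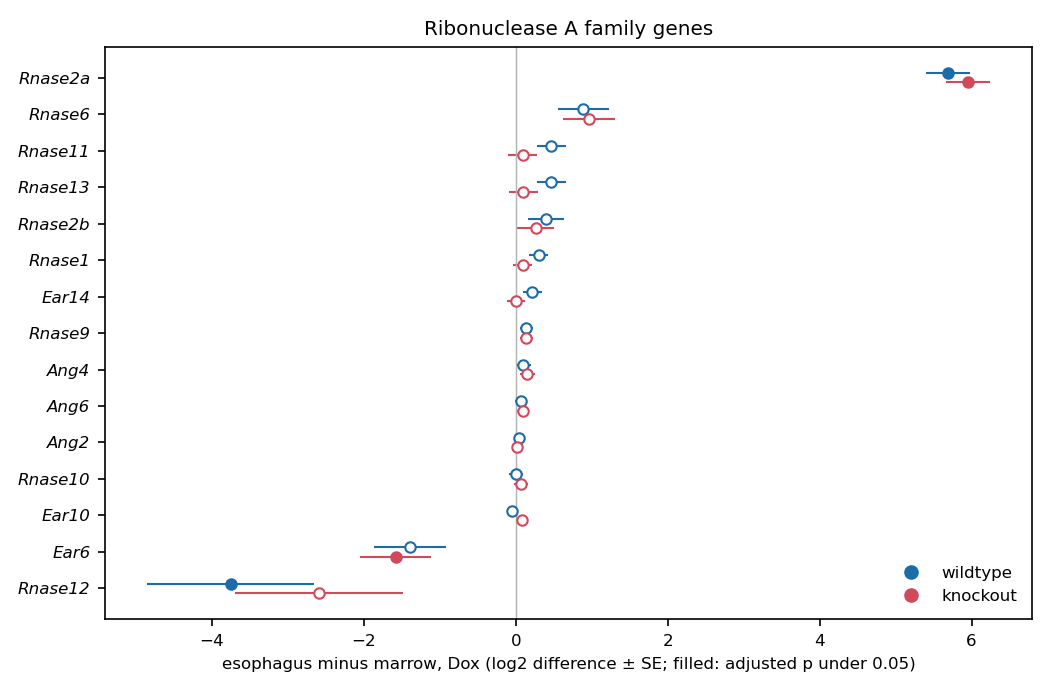
Esophagus minus marrow difference with Dox (log2, ± SE) for the 15 measured ribonuclease A family genes, in wildtype (blue) and knockout (red), filled where the limma adjusted p was under 0.05. Rnase2a stands at 5.69 and 5.95, Rnase6 follows at 0.89 and 0.96, and Ear6 and Rnase12 lie below 0.

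Other gene groups moved between the tissues beside the granule genes. Cell cycle genes, which mark dividing precursors in marrow, fell in the esophagus in 23 of 23 measured members in each genotype, with a median of -2.53 in wildtype and -2.68 in knockout. Rrm2, a subunit of ribonucleotide reductase, differed by -3.30 ± 0.22 in wildtype and -3.46 ± 0.22 in knockout (limma adjusted p = 1.02e-06 and 5.42e-07). Over quantile normalization, median centring and leaving out the outlying array, between 21 and 23 of these genes passed as lower in wildtype and 22 or 23 in knockout. The mean of the list per array was between -2.33 and -2.23 in esophageal arrays and between 0.19 and 0.46 in marrow arrays with Dox.

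Of 18 neutrophil granule genes, 12 passed as lower and 2 as higher in wildtype, and 13 and 2 in knockout, with medians of -2.37 and -2.33. Ctsg, cathepsin G of primary granules, fell by 5.53 ± 0.10 in each genotype (limma adjusted p = 9.05e-13 in wildtype and 9.02e-13 in knockout). Mpo, the peroxidase of neutrophils and their precursors, differed by -5.45 ± 0.17 and -5.52 ± 0.17 (limma adjusted p = 6.78e-10 and 4.37e-10). The mean of the list per array ran from -2.88 to -1.96 in the esophagus and from -0.09 to 0.33 in marrow with Dox. Of 13 mast cell and basophil markers 4 passed as lower in each genotype, with the array means from -0.80 to -0.64 in the esophagus and from 0.07 to 0.26 in marrow with Dox. In wildtype 7 of the 13 markers were above 0 and 6 below, with a median of 0.02, and in knockout 6 and 7, with a median of -0.13. Without the outlying array 3 passed as higher and 5 as lower in wildtype, and 1 and 5 in knockout. The markers that passed included Cpa3, a mast cell and basophil protease, at -3.87 ± 0.35 and -3.97 ± 0.35, and Mcpt8, a basophil protease, at -4.01 ± 0.74 and -4.37 ± 0.74. Of 15 monocyte and macrophage markers 4 passed as lower in wildtype and 9 in knockout, and 14 and 12 were below 0. Of cells that esophageal tissue could add, epithelial markers passed as higher in 0 of 12 in wildtype and 1 of 12 in knockout, and fibroblast markers in 1 and 2 of 8. Without the outlying array these counts were 3 and 2 of 12 epithelial and 4 and 3 of 8 fibroblast markers. Of the epithelial markers 10 of 12 were above 0 in each genotype (medians 0.28 and 0.22). Of the fibroblast markers 8 of 8 were above 0 in wildtype and 7 of 8 in knockout (medians 0.38 and 0.30). The epithelial gene that passed as higher with all arrays was Krt13, a keratin of stratified epithelium, at 0.97 ± 0.22 in knockout (limma adjusted p = 0.011). Cdh1, E-cadherin, was lower in wildtype at -0.87 ± 0.21 (limma adjusted p = 0.0185). Lymphocyte markers passed as lower in 1 and 2 of 10, and without the outlying array in 2 of 10 in each genotype, with 1 higher in knockout. Erythroid markers passed in 0 of 5 in each genotype by limma (in knockout 2 passed as lower with quantile normalization and 1 with median centring), with smallest unadjusted p-values of 0.0814 for Klf1 in wildtype and 0.0261 for Slc4a1 in knockout. The part of cell cycle genes and of these other cell types in the tissue differences of Epx, Prg2, Prg3 and Rnase2a was not tested.

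Eosinophil surface and identity genes went the other way. Of 16 measured, 6 passed as higher in wildtype and 9 in knockout, and 0 as lower, with medians of 0.88 and 1.27. Alox15, a lipoxygenase of eosinophils, rose by 2.95 ± 0.59 in wildtype (limma adjusted p = 0.00697), and Alox5, the first enzyme of leukotriene synthesis, by 1.56 ± 0.30 in wildtype (limma adjusted p = 0.00526) and 1.98 ± 0.30 in knockout (limma adjusted p = 0.000832). Siglecf, the receptor used in the sort, rose by 1.14 ± 0.16 in knockout (limma adjusted p = 0.000479). In wildtype it was at -0.34 to -0.02 in marrow with Dox and 0.07 to 0.33 in esophagus. The list's array means were 0.63 to 1.33 in the esophagus and -0.26 to 0.01 in marrow with Dox.

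Haem synthesis genes, which serve peroxidases among other enzymes, passed as lower in 3 of 7 members in wildtype and 2 of 7 in knockout. Fech, which inserts iron into haem, differed by -0.96 ± 0.26 and -1 ± 0.26 (limma adjusted p = 0.0266 and 0.0242). With quantile normalization, median centring or the outlying array left out, the number called ranged from 0 to 3 in wildtype and from 0 to 2 in knockout. Of 4 other haem peroxidase genes, Mpo fell and Ptgs2, the inducible cyclooxygenase, rose by 5.94 ± 0.29 and 5.98 ± 0.29 (limma adjusted p = 6.32e-08 and 4.97e-08).

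Among 24 genes of granule packing and exocytosis, 7 passed as higher and 3 as lower in wildtype, and 5 and 0 in knockout. The wildtype counts were 1 and 1 with quantile normalization, 4 and 3 with median centring and 9 and 5 without the outlying array. The knockout counts were 6 and 1, 5 and 0, and 8 and 4 in these settings. Vamp2, a vesicle fusion protein, rose by 0.67 ± 0.14 and 0.95 ± 0.14 (limma adjusted p = 0.00751 and 0.000608). Regulators of eosinophil development were mixed, with 4 of 15 passing as higher and 2 as lower in wildtype and 5 and 2 in knockout. Without the outlying array these were 5 and 4, and 7 and 2, and with quantile normalization 3 and 0, and 4 and 2. Trib1, a pseudokinase needed for eosinophil maturation, rose by 2.56 ± 0.28 and 3.11 ± 0.28 (limma adjusted p = 0.000123 and 1.72e-05), and Spi1, the transcription factor PU.1, by 0.71 ± 0.17 and 1.10 ± 0.17 (limma adjusted p = 0.0174 and 0.0011). With median centring of the arrays the wildtype median of the packing genes was -0.03, beside 0.08 without it.

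**Figure D4:**
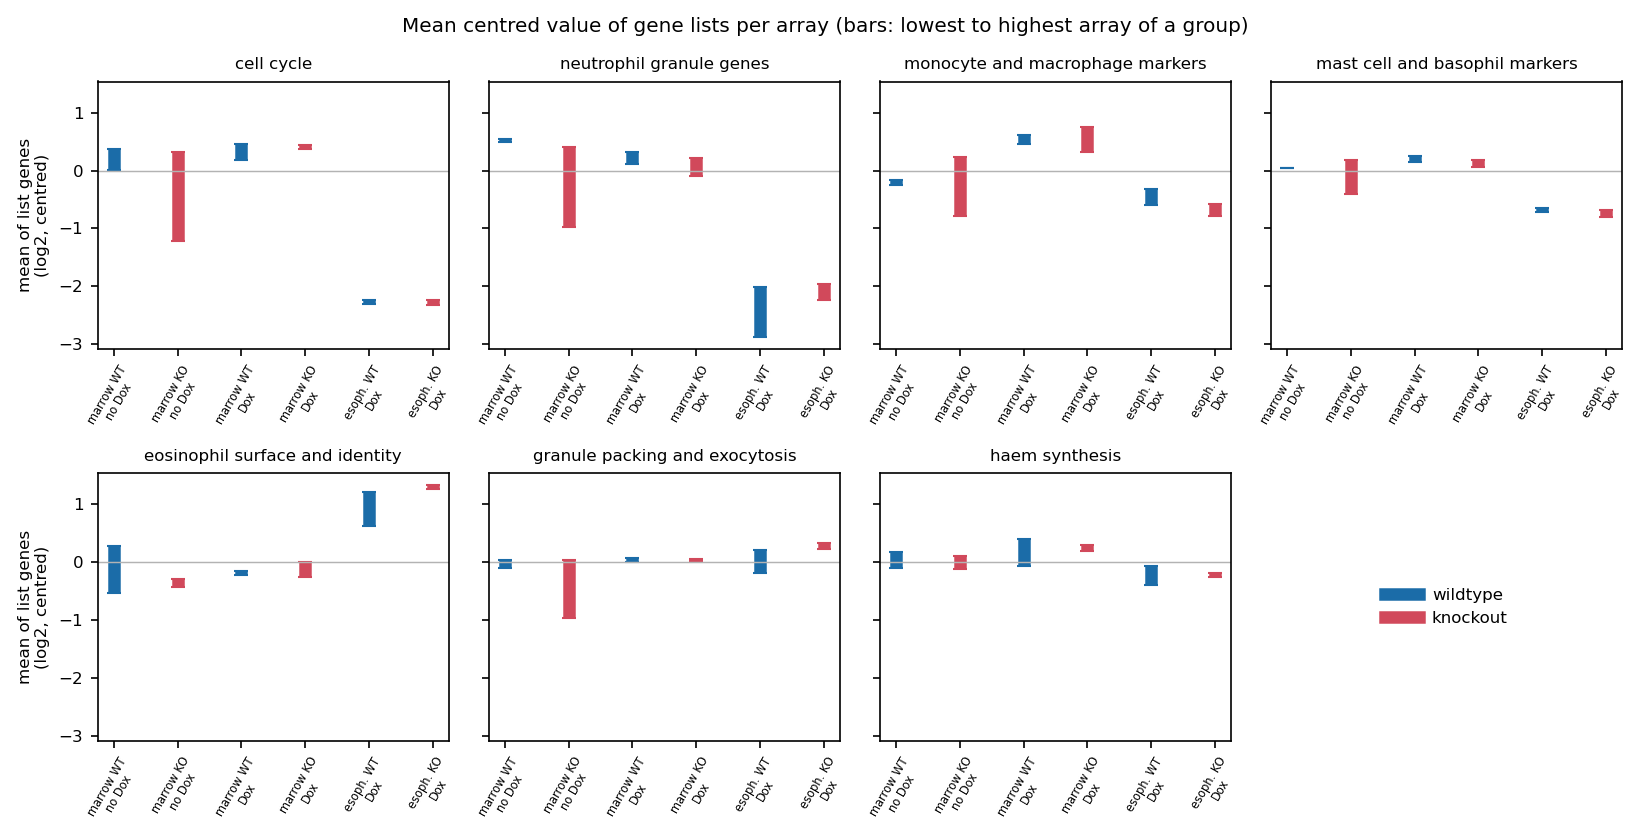
Mean centred value (log2) of the measured genes of 7 lists, with each bar running from the lowest to the highest array of a group, wildtype in blue and knockout in red. Cell cycle genes lie between -2.33 and -2.23 in the esophageal arrays, and eosinophil surface and identity genes between 0.63 and 1.33, against -0.26 to 0.01 in marrow with Dox.

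The comparison of marrow with and without Dox shares its arrays with Dox with the tissue comparison. It asks whether the marrow eosinophils change when Dox is given, which induces IL-13. Because all groups carried the transgene, an effect of Dox itself cannot be told apart from one of IL-13. None of the 6 genes passed, in either genotype, when 0.0225% of all genes passed in each (0.018% higher and 0.00451% lower in wildtype, and all higher in knockout). The arrays with Dox lay above those without for 4 genes in wildtype (Epx, Prg2, Prg3 and Rnase2a), when 25.3% of all genes did not overlap (12.5% higher and 12.9% lower). They did so for 4 genes in knockout (Epx, Prg2, Prg3 and Ear6), when 36.5% of all genes did not overlap (8.34% higher and 28.1% lower). Epx was the member with the largest difference. In wildtype marrow it was at 0.03 and -0.03 without Dox and at 1.23, 1.74 and 1.52 with Dox. The difference of 1.5 ± 0.46 (SE, n = 3 and 2) did not pass (unadjusted p = 0.00595 and adjusted p = 0.677 by limma) and ranked 25th highest of all genes. It passed when the outlying array was left out of the shared estimate of spread (limma adjusted p = 0.00447), with array weights (0.00844) and with quantile normalization (1.95, limma adjusted p = 0.0245).

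In knockout marrow Epx was at 0.72, 0.34 and -1.57 without Dox, where -1.57 is the outlying array, and at 1.5, 1.27 and 1.52 with Dox. The difference was 1.60 ± 0.41 (limma adjusted p = 0.146), and 0.90 without the outlying array (limma adjusted p = 0.107). It passed with array weights (1.06, limma adjusted p = 0.00296), with quantile normalization (1.52, 0.0384) and without knockout marrow replicate 1 without Dox (2.05, 0.0425).

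Rnase2a differed with Dox in wildtype marrow, from -1.30 and -1.23 to 0.17, 0.39 and -0.73, by 1.20 ± 0.33 (unadjusted p = 0.00279 and adjusted p = 0.526 by limma). In knockout it went from -1.22, -1.04 and -0.92 to -1.20, -0.17 and -1.26, which overlap, with a difference of 0.18 ± 0.29 (limma adjusted p = 0.657). The difference between the genotypes in this response was -1.02 ± 0.44 and did not pass (unadjusted p = 0.0364 and adjusted p = 0.663 by limma). Prg3 differed by 0.58 ± 0.58 in wildtype and 1.20 ± 0.52 in knockout, and without the outlying array the knockout value was 0.38. Ear6 differed by 0.39 ± 0.52 and 1.27 ± 0.47, with a knockout value of 0.61 without that array. Prg2 differed by 0.21 ± 0.39 and 0.22 ± 0.35, with its arrays with Dox at 0.17 to 0.29 and those without at -0.03 to 0.07, and Ear10 by 0.11 ± 0.08 and 0.00 ± 0.07. None of these passed by limma. For Prg2 the SE pools all groups, whose SD was 0.01 to 0.06 in marrow and 0.85 and 0.68 in wildtype and knockout esophagus. The SE therefore overstates the spread of Prg2 in marrow. In each genotype Prg2 passed in 0 of 12 alternatives, among them the fit to only the groups compared.

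Macrophage markers were also higher in wildtype marrow arrays with Dox than without, as Epx was. The mean of the 15 monocyte and macrophage markers per array was -0.25 to -0.16 in wildtype marrow without Dox and 0.46 to 0.61 with Dox. In knockout marrow it was -0.78 to 0.23 without Dox and 0.33 to 0.76 with Dox. Of the 15 markers 13 were above 0 in each genotype, with medians of 0.94 and 0.61, and 0 passed by limma. The knockout median was 0.09 without the outlying array and 0.26 with quantile normalization, while the wildtype median was 0.94 and 1.37. Over quantile normalization, median centring and leaving out the outlying array, 0 to 4 of them passed in wildtype and 0 to 2 in knockout. Mertk, a receptor for apoptotic cells that passed in the tissue comparison, was at 0.13 to 0.43 in wildtype marrow without Dox and 1.5 to 2.11 with Dox. The part of macrophage markers in the Epx values was not tested.

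The genes closest in pattern to each member were those with the smallest mean absolute difference in centred value over the 17 arrays. For Epx they were Spic, a transcription factor of iron-recycling macrophages (0.286), and Il18, an interleukin-1 family cytokine (0.384). Spic was at -0.10 to 0.10 in wildtype marrow without Dox, at 1.08 to 2.05 with Dox and at -1.84 to -1.65 in wildtype esophagus. For Prg3 they were Ms4a3, a gene of granulocyte and monocyte progenitors (0.411), and Ankrd28 (0.422). For Rnase2a they were Il1a, which encodes interleukin-1 alpha (0.577), and Slc7a11, the cystine transporter (0.605). Il1a was at 4.96 to 5.03 in wildtype and 5.27 to 5.63 in knockout esophagus. Prg2 was closest to Zmpste24 (0.288) and Hdac2 (0.326), and Ear6 to Ibtk (0.274) and Ncoa4 (0.298). The group means of Ear10 spanned 0.13, too little to define a pattern.

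The comparison of knockout with wildtype asks what PIR-B restrains in these cells. None of the 6 genes passed in esophagus, marrow with Dox or marrow without Dox. In the esophagus 0.347% of all genes passed, 0.311% as higher in knockout and 0.0361% as lower. In marrow 0% passed with or without Dox by limma, where 407 and 1809 genes had an unadjusted p under 0.05. In marrow with Dox the genotypes overlapped for all 6 genes, when 11.7% of genes did not overlap (4.11% higher and 7.62% lower). Siglecf, used in the sort, itself differed between the genotypes in the esophagus. It was at 0.07 to 0.33 in wildtype and 0.77 to 1.32 in knockout, a difference of 0.95 ± 0.16 (limma adjusted p = 0.0259). This call was lost with quantile normalization, where 0 of the 16 measured eosinophil surface and identity genes passed in this comparison. The part of Siglecf in the genotype values of the granule genes was not tested.

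Prg2 had the largest genotype difference in the esophagus. Its wildtype values of -2.32, -3.89 and -3.66 overlapped the knockout values of -1.78, -1.40 and -2.72. The difference was 1.32 ± 0.35, with a 95% confidence interval of 0.56 to 2.08 (unadjusted p = 0.00246 and adjusted p = 0.154 by limma). This SE pools the spread of all 6 groups. The SD of Prg2 was 0.85 in wildtype and 0.68 in knockout esophagus, against 0.01 to 0.06 in the marrow groups. The SE and interval therefore understate the spread of the esophageal arrays. It passed without wildtype esophageal replicate 1 (1.81, limma adjusted p = 0.00688) and with array weights (1.58, 0.0264), and was 0.46 with quantile normalization (0.833). The test of whether the tissue difference of Prg2 depends on genotype gave 1.34 ± 0.50, in a comparison where 0.00451% of all genes passed (unadjusted p = 0.0189 and adjusted p = 0.935 by limma). The genotypes are therefore not shown to differ in the size of its fall.

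Rnase2a was lower in each knockout esophageal array than in each wildtype array, as 17.6% of genes were. The difference was -0.56 ± 0.29, with an interval of -1.19 to 0.07 (limma adjusted p = 0.375). In marrow with Dox it was -0.82 ± 0.29, with an interval of -1.45 to -0.19 and overlapping arrays (unadjusted p = 0.0149 and adjusted p = 1 by limma). The SD of Rnase2a was 0.60 and 0.61 in these marrow groups, against 0.05 to 0.21 in the others. The SE pools all groups, so the interval understates the spread in marrow with Dox. In marrow without Dox the order was the other way. All 3 knockout arrays (-1.22, -1.04 and -0.92) lay above both wildtype arrays (-1.30 and -1.23), as for 17.6% of genes, with a difference of 0.20 ± 0.33 (limma adjusted p = 0.777), or 0.13 without the outlying array. The test of whether its tissue difference depends on genotype gave 0.26 ± 0.41 (limma adjusted p = 0.97). Rnase2a is a secreted ribonuclease, and these arrays measure its transcript and not the protein.

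Epx differed between the genotypes by -0.06 in the esophagus (interval -0.94 to 0.82) and by -0.06 in marrow with Dox (-0.95 to 0.82). Prg3 differed by 0.18 (-0.94 to 1.30) in the esophagus, Ear6 by -0.41 (-1.42 to 0.60) and Ear10 by 0.00 (-0.16 to 0.16). In marrow without Dox, Ear6 was lower in all 3 knockout arrays (-0.08, -0.03 and -2.03) than in both wildtype arrays (0.05 and 0.73), as 5.72% of genes were. The difference of -1.10 ± 0.52 did not pass (limma adjusted p = 0.546) and was -0.44 without the outlying array. Prg3 differed there by -0.75 ± 0.58, and by 0.07 without that array. Epx differed by -0.17 ± 0.46, and by 0.53 without it.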

How the data were processed

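RNA of sorted eosinophils was amplified and measured on 17 Affymetrix arrays. The authors deposited log values per probe set, here taken as log2 although no source states the base. The submitters' processing notes name Affymetrix Expression Console, and normalization and background steps are not given in the sources used here. In 96.95% of 33793 probe sets the values nearest 0 on either side were equal and opposite within 2e-05, as a median over 18 arrays set to 0 would leave them. Per the series' design text, 1 wildtype marrow array without Dox was dropped for weak hybridization.

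Probe sets with 1 gene symbol (23521) were averaged to 22180 genes. Probe sets with several symbols (1814) or none (8458) were left out. Current names came through 23328 Entrez matches to the GRCm38.p6 gene table. A linear model with 6 group means was fitted to all arrays in limma 3.58.1 (R 4.3.3), with moderated two-sided tests, Benjamini-Hochberg adjustment over all genes and a threshold of 0.05. The model was tested on simulated data.

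The members and lists were chosen with earlier results of these data known. Beside the members, the text names ribonuclease family genes that passed with Ear1, Ear2 and Rnase2b, up to 3 genes per list and comparison with the smallest p among those that passed, the gene with the smallest p where none of a list passed between tissues, and the 2 genes nearest in pattern to each member. Ear14, Rnase6 and the Dox values of Mertk were added after their values were seen. Promoters were aligned globally. Alternatives were quantile normalization, median centring, array weights, only the groups compared, another probe set rule, replicate blocks and leaving out arrays. Precision is limited by 2 or 3 arrays a group.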

Additional observations from a re-analysis of the deposited data

How the results depend on the processing

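Of 54 differences of the 6 genes, 9 passed and 8 of these passed in every alternative run for them. The exception was Ear6 in the knockout tissues. Of the 45 that did not pass, 4 passed in at least 1 alternative. For 17 the sign differed in at least 1 alternative, where a value that rounded to 0 counted as a sign of its own. The 17 include the Ear10 genotype difference in the esophagus, at 0 in the main fit and 0 to 0.09 in the alternatives. The number of all genes called moved far more, and the cause was not tested. For wildtype tissues (3366) it was 2048 with quantile normalization, 8210 with array weights, 5528 with a replicate block of genotype and number, and 1335 to 8092 leaving out 1 array. For knockout tissues (2336) it was 4451 with only the groups compared, 6117 with array weights and 1538 to 4175 leaving out 1 array. For genotype in the esophagus (77) it was 2 with quantile normalization, 8 with only the groups compared, 858 with array weights, 47 with the replicate block and 22 to 763 leaving out 1 array. For genotype in marrow with Dox (0) it was 6 with array weights, 1 with the replicate block and 0 to 2 leaving out 1 array, and without Dox (0) it was 37 with quantile normalization and 0 to 6 leaving out 1 array. For Dox in wildtype marrow (5) it was 126 with quantile normalization, 3 with median centring, 0 with only the groups compared, 55 with array weights, 2 with the replicate block and 0 to 33 leaving out 1 array. For Dox in knockout marrow (5) it was 233 with quantile normalization, 0 with only the groups compared, 3331 with array weights and 0 to 346 leaving out 1 array. For the dependence of the tissue difference on genotype (1) it was 0 with quantile normalization, 5 with only the groups compared, 35 with array weights and 1 to 34 leaving out 1 array, and for that of the Dox difference (0) it was 3 with array weights and 0 to 4 leaving out 1 array. The counts of 8092 and 4175 came from leaving out the outlying knockout marrow array, a setting added after seeing the data for comparisons that do not use its group. The repeats of the list counts were added then too. Of the wildtype tissue calls 1799 of 3366 were higher, against 803 of 2048 with quantile normalization.

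Replicate numbers were not used as pairs in the main model. Correlations of deviations of same-numbered arrays ran from -0.0902 to 0.203, and every pair was over 0.1 in no comparison with 3 pairs. In the comparisons with wildtype marrow without Dox every pair was over 0.1, at 0.176 and 0.203 for genotype and 0.141 and 0.185 for Dox. Groups this small cannot decide whether same-numbered arrays were paired. With the replicate block the wildtype Ear6 tissue difference stayed at -1.39 (limma adjusted p = 0.0519 by number and 0.0318 by genotype and number). Median centring moved the median of all genes in the wildtype tissue comparison from 0.14 to 0.03. Centred values give no brightness, so a filter on dim probes and a background correction could not be run, and no slide is named to use as a block.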
